A study of Rattus norvegicus with 17 samples.

Results

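The gastrocnemius, a hindlimb calf muscle, was compared between all tumor-bearing rats of the series and healthy rats. The tumor-bearing side held 11 of the 16 samples: 5 from rats with a tumor and no chemotherapy, and 6 from rats with a tumor and chemotherapy. The 5 remaining samples came from healthy rats. Members were taken from the sample titles, which also give the control diet for all 3 groups. The labels name neither the tumor nor the chemotherapy agent, and give no strain, sex, age or time after treatment. They state more than 5 per group, while 5 healthy and 5 tumor libraries were analysed here, and nothing in them says whether each library came from its own animal. If not, the p-values measure a spread that may be technical. Total RNA from 10 mg of muscle, with an RNA integrity number above 9.0 per the labels, was depleted of ribosomal RNA and sequenced as stranded libraries. Because RNA was not selected for poly(A) tails, histone messages and noncoding RNAs were read as well. The deposited 17 columns became 16 samples because libraries 11 and 12, both from the chemotherapy group, were summed. Samples keep their library numbers: 1 to 5 healthy, 6 to 10 tumor, and 11 and 13 to 17 tumor with chemotherapy.

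Skeletal muscle wastes in many patients and animals with cancer, a condition called cachexia, and the wasting is usually described through fiber proteins and their breakdown. Muscle RNA also comes from the cells between the fibers. Each fiber lies in a basement membrane, a sheet of type IV collagen and laminin joined by nidogen, and fibroblast-like cells make the collagen around it. A fiber contracts when a calcium channel in its surface membrane senses voltage and opens the calcium store. The question here was which genes differed between tumor-bearing and healthy muscle in the same direction in both tumor groups.

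Total counts on named genes ran from 3020821 to 19965891 per sample, and tumor-bearing and healthy samples did not differ detectably (exact permutation p = 0.63, two-sided). In tumor-bearing samples, 36.2% ± 1.83 of the counts fell on the 20 most abundant genes (SD, n = 11), against 40.9% ± 3.28 in healthy ones (n = 5; exact permutation p = 0.00252, two-sided). Healthy samples 1, 3 and 4 lay at 1 end of the spread of the samples. On the first principal component, with 48.4% of the variance of the 1000 most variable genes, they lay at 27.7, 33.0 and 42.0. Healthy samples 2 and 5 lay at -10.4 and 7.18, and the tumor-bearing samples from -28.1 to 19.8. Tumor samples 8 and 10, at 19.8 and 13.8, lay nearest to healthy samples 1, 3 and 4. Healthy samples 1 to 4 and sample 11 carry the suffix MB in the name of their alignment. Healthy sample 5, all 5 tumor samples and the other 5 chemotherapy samples carry VM. The meaning of these letters is not given, and the suffix can hardly be told apart from the groups. Muscle identity was checked on contractile genes: all 12 fast-fiber and all 11 slow-fiber genes in the table passed the filter on low counts. Levels are given as CPM, read counts scaled to the size of the library. Myh4, the myosin heavy chain of the fastest fibers, averaged 87140 ± 27300 CPM in healthy samples, 96970 ± 4280 in tumor samples and 86890 ± 9100 with chemotherapy (SD). Neutrophil markers summed to between 0 and 7.42 CPM per sample, with Camp and Elane at 0 counts in every sample.

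Against healthy rats, with each tumor group weighted equally, 844 of 11856 genes tested were called, which is 7.12% (edgeR quasi-likelihood F test, adjusted p below 0.05). Of these, 370 (3.12%) were higher and 474 (4%) lower in tumor-bearing muscle. All 844 had fold changes of the same sign in both tumor groups. A gene was counted as shared when it was also at an unadjusted p below 0.05 in each tumor group against healthy and was not called between the tumor groups. There were 787 shared genes (6.64%), 360 higher (3.04%) and 427 lower (3.6%). Both tumor groups were set against the same 5 healthy samples, so a healthy sample that is high or low moves both fold changes. The shared higher genes had a median log2 fold change of 0.72 in the tumor group and 0.99 with chemotherapy, and the shared lower genes -0.59 and -0.70. In the tumor group alone no gene was called, with 1053 higher (8.88%) and 1081 lower (9.12%) at an unadjusted p below 0.05. In the chemotherapy group alone 865 genes were called higher (7.3%) and 760 lower (6.41%). No gene was called between the tumor groups. In 632 of the 787 the change was the larger in the chemotherapy group. Among all called genes, 120 were at a log2 fold change of at least 1 and 67 at -1 or below. The called genes that rose were expressed at a median of 20.2 CPM and those that fell at 38.9 CPM, against 15.9 CPM for all genes tested.

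**Figure D1:**
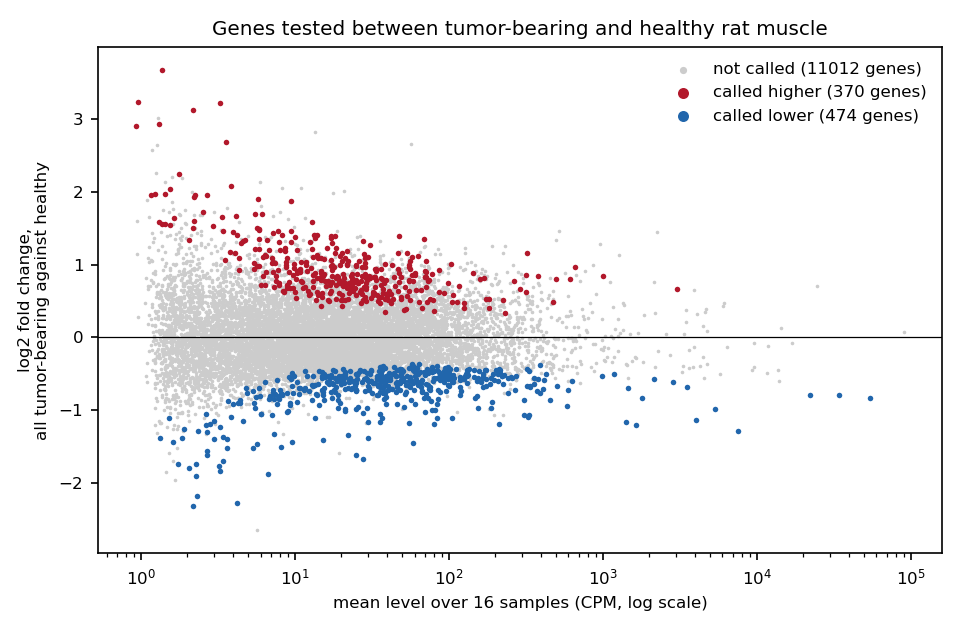
Each point is a gene, with its mean level over the 16 samples (CPM, log scale) on the x axis and the log2 fold change of all tumor-bearing against healthy samples on the y axis. Red points are the 370 genes called higher, blue points the 474 called lower and grey points the 11012 not called; genes called lower lie further to the right, at a median of 38.9 CPM against 20.2.

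Every adjusted p among the called genes lay between 0.0346 and 0.0499, close to the threshold, and the count depended on which samples were in the fit. No gene was called when healthy sample 1, 3 or 4, tumor sample 6, 7 or 9, or chemotherapy sample 13, 14 or 15 was left out. Leaving out any of the other 7 samples still gave calls, from 93 higher and 185 lower (without chemotherapy sample 16) to 1874 higher and 1661 lower (without healthy sample 2). In each of these 16 fits, at least 841 of the 844 genes kept their direction at an unadjusted p below 0.05. The 844 genes were picked from these same samples, and each fit reuses all but 1 of them. That count was therefore largely fixed in advance and is no independent support. Without healthy samples 1, 3 and 4 together no gene was called. That fit, used below for single genes and lists, keeps only healthy samples 2 and 5, so it has little power. The samples left out were picked from these data, at the end of the first principal component away from most tumor-bearing samples. Smaller fold changes without them were thus likely in advance. Of the 843 genes that could still be tested, 831 kept their direction and 105 of those had an unadjusted p below 0.05. With the suffix as a term in the fit no gene was called either, all 844 kept their direction and 209 had an unadjusted p below 0.05. Scaling by total counts in place of TMM raised the median of all genes from -0.01 to 0.12 and gave 1005 genes higher and 226 lower, so that 81.6% of the calls were higher in place of 43.8%. Unadjusted p-values below 0.05 were found for 3969 genes in the fit of all 16 samples.

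**Figure D2:**
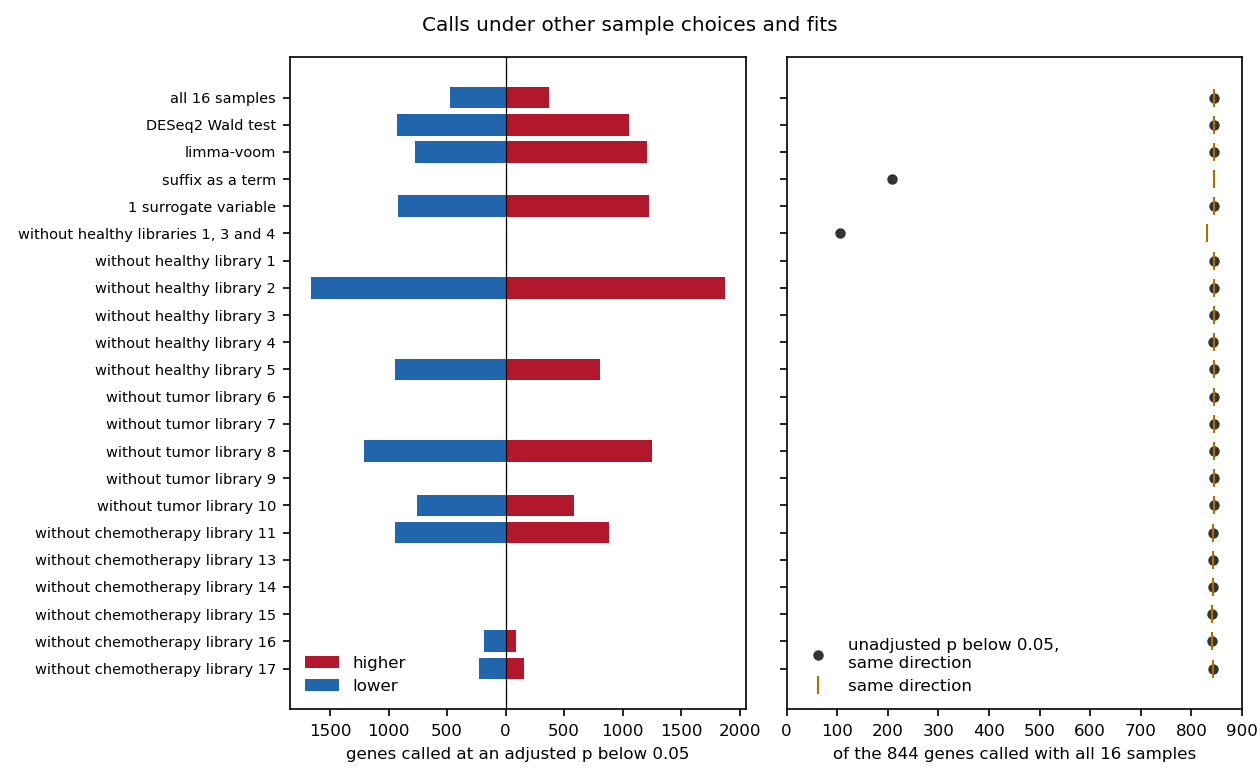
The left panel gives the genes called higher (red, to the right) and lower (blue, to the left) in each fit, and the right panel how many of the 844 genes kept their direction (ticks) and did so with an unadjusted p below 0.05 (dots). With 1 sample left out, 9 of 16 fits called no gene while at least 841 genes kept their direction. The 844 genes were picked from the same samples, so that count was largely fixed in advance. With the suffix as a term 209 genes had an unadjusted p below 0.05 and without healthy samples 1, 3 and 4 there were 105.

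Called collagen and basement membrane genes were all lower in tumor-bearing muscle. Of 32 collagen genes tested, 11 were called lower and none higher (34.4% against the 4% of all genes), with a median log2 fold change of -0.59. Of 11 laminins, nidogens and their partners, 6 were called lower and none higher (54.5%; median -0.54). The median of all genes tested was -0.01. Of 30 other matrix glycoproteins and remodeling enzymes, 3 were called lower (10%; median -0.30). With total-count scaling the medians were -0.46, -0.41 and -0.17. Without healthy samples 1, 3 and 4 they were -0.20, -0.14 and 0.03, with no call. By group, the 3 medians were -0.325, -0.38 and -0.179 in the tumor group and -0.835, -0.815 and -0.48 with chemotherapy. Of the called genes, Col7a1 and Lama4, named after their values were seen, were not shared.

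Type IV collagen is built from chains whose genes lie head to head in pairs, so that a short stretch of DNA serves both as promoter. All 5 chains tested were shared lower genes. Col4a1, the most widespread chain, stood at 465, 378, 611, 604 and 356 CPM in healthy samples 1 to 5 and at 189, 225, 413, 197 and 276 CPM in tumor samples 6 to 10. With chemotherapy it ran from 162 to 269 CPM with a median of 195. Every chemotherapy sample lay below every healthy one, and of the tumor samples only sample 8 reached into the healthy range. The pooled log2 fold change of Col4a1 was -1.06 ± 0.18 (SE; edgeR adjusted p = 0.0346), and -0.67 without healthy samples 1, 3 and 4. Col4a5, a chain of the same membrane encoded on the X chromosome, stood at 57.0, 41.2, 81.2, 77.9 and 33.6 CPM in healthy samples and at 27.0, 25.6, 40.7, 22.4 and 28.9 CPM in tumor samples. It ran from 23.1 to 28.7 CPM with chemotherapy (median 25.4), and again only tumor sample 8 lay within the healthy range. Its fold change was -1.10 ± 0.17 (edgeR adjusted p = 0.0346), and -0.46 without healthy samples 1, 3 and 4. Col4a2, Col4a3 and Col4a4, named after their values were seen, were at -0.83, -0.96 and -0.84. In the tumor group alone these 5 chains ran from -0.57 (Col4a2) to -1.01 (Col4a5), and with chemotherapy from -0.94 (Col4a4) to -1.24 (Col4a1).

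The start sites of Col4a1 and Col4a2 lie 77 bases apart on opposite strands in the RefSeq annotation of rat assembly GRCr8. Those of Col4a3 and Col4a4 lie 413 bases apart and those of Col4a5 and Col4a6 1415 apart. The promoter windows of the first pair, from 250 bases before to 50 after each start, are shown because both genes fell and share the stretch in capitals, which is 176 bases long and is read on opposite strands in each. The Col4a1 window is chr16:84885347-84885646 on the plus strand and the Col4a2 window chr16:84885471-84885770 on the minus strand, both written 5′ to 3′.
Col4a1: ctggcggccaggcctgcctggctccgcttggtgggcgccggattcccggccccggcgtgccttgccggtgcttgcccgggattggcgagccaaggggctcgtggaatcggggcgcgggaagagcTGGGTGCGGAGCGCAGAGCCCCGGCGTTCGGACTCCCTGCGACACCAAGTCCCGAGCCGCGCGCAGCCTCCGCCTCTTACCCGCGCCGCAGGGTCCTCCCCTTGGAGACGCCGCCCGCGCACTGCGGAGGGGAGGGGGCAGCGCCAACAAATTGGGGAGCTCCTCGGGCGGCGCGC
Col4a2: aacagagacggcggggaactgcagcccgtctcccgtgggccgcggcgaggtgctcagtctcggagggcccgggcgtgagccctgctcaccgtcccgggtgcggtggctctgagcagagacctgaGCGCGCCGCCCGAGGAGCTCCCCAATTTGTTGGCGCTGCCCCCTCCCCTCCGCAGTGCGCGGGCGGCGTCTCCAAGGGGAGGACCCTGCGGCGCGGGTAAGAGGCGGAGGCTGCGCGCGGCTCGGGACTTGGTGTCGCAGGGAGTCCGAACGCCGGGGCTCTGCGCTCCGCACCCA

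Lamc1 and Lamb1 encode the gamma and beta chains of the main muscle laminins. Lamc1 stood at 573, 451, 650, 664 and 417 CPM in healthy samples, at 256, 326, 540, 287 and 402 CPM in tumor samples and from 260 to 350 CPM with chemotherapy (median 269). All chemotherapy samples and 4 of the 5 tumor samples lay below the healthy range, and tumor sample 8 lay within it. The fold change of Lamc1 was -0.77 ± 0.16 (SE; edgeR adjusted p = 0.0346) and that of Lamb1 -0.97 ± 0.20, against -0.43 for each without healthy samples 1, 3 and 4. Nid1 and Nid2, which encode the nidogens, were at -0.89 and -0.86, and Lama2, the laminin alpha chain of muscle, at -0.64. These 3 were named after their values were seen.

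Among fibrillar collagens, Col3a1, which forms fine fibrils with type I collagen, stood at 2210, 1760, 3500, 4210 and 1800 CPM in healthy samples. It stood at 692, 948, 1870, 1120 and 1700 CPM in tumor samples and ran from 673 to 1600 CPM with chemotherapy (median 980). All chemotherapy samples were below the healthy range and tumor sample 8 was inside it. The fold change was -1.20 ± 0.26 (SE; edgeR adjusted p = 0.0346), and -0.60 without healthy samples 1, 3 and 4. The 3 type V chains tested were called lower too, from -0.68 to -0.99. Col1a1, the main chain of type I collagen, was not called. It stood at 11100, 3710, 3070, 8920 and 1940 CPM in healthy samples and at 1380, 3490, 9260, 2950 and 10100 CPM in tumor samples, and ran from 865 to 8160 CPM with chemotherapy (median 1770). The groups overlapped over most of their range, and the pooled value of -0.56 ± 0.54 (adjusted p = 0.472) turned to 0.46 without healthy samples 1, 3 and 4. Eln, which encodes elastin, was at -0.99 ± 0.23, and Fbn1, which encodes the microfibril protein fibrillin 1, at -0.95 ± 0.23 (edgeR adjusted p = 0.0346 and 0.0352). These were -0.24 and -0.38 without healthy samples 1, 3 and 4, and Eln was at -0.22 with the suffix as a term.

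Matrix genes are read mostly from fibroblast-like cells, vessel cells and fibers, and markers of these cells were read beside them. All 16 fibro-adipogenic and fibroblast markers tested had negative fold changes (median -0.48; -0.10 without healthy samples 1, 3 and 4), and 3 were called lower, Smoc2, Cd34 and Cxcl14, the last named after its values were seen. Their summed level, over the 17 markers in the table, ran from 2130 to 3850 CPM in healthy samples, from 2080 to 4040 in tumor samples and from 1770 to 3280 with chemotherapy, with Tcf21 at 0 in every sample. Smoc2, a secreted matrix protein of these cells, stood at 68.8, 76.3, 141, 118 and 101 CPM in healthy samples and at 61.9, 64.2, 83.5, 58.6 and 74.0 CPM in tumor samples. It ran from 46.2 to 71.4 CPM with chemotherapy (median 55.4), so that healthy samples 1 and 2 lay among the tumor-bearing ones. Its fold change was -0.71 ± 0.15 (edgeR adjusted p = 0.0346), and -0.52 without healthy samples 1, 3 and 4. Cd34, a progenitor and vessel surface protein, was at -0.83 ± 0.19, and at -0.36 without healthy samples 1, 3 and 4. In bulk muscle, fewer cells of a type and less RNA per cell cannot be told apart, and the part of the fibroblast markers in the matrix result was not tested. Of 14 pericyte and smooth muscle markers, 2 were called lower (median -0.10, which turned to 0.03 with total-count scaling). None of the 8 tenocyte markers was called (edgeR; 1 higher and none lower at an unadjusted p below 0.05).

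**Figure D3:**
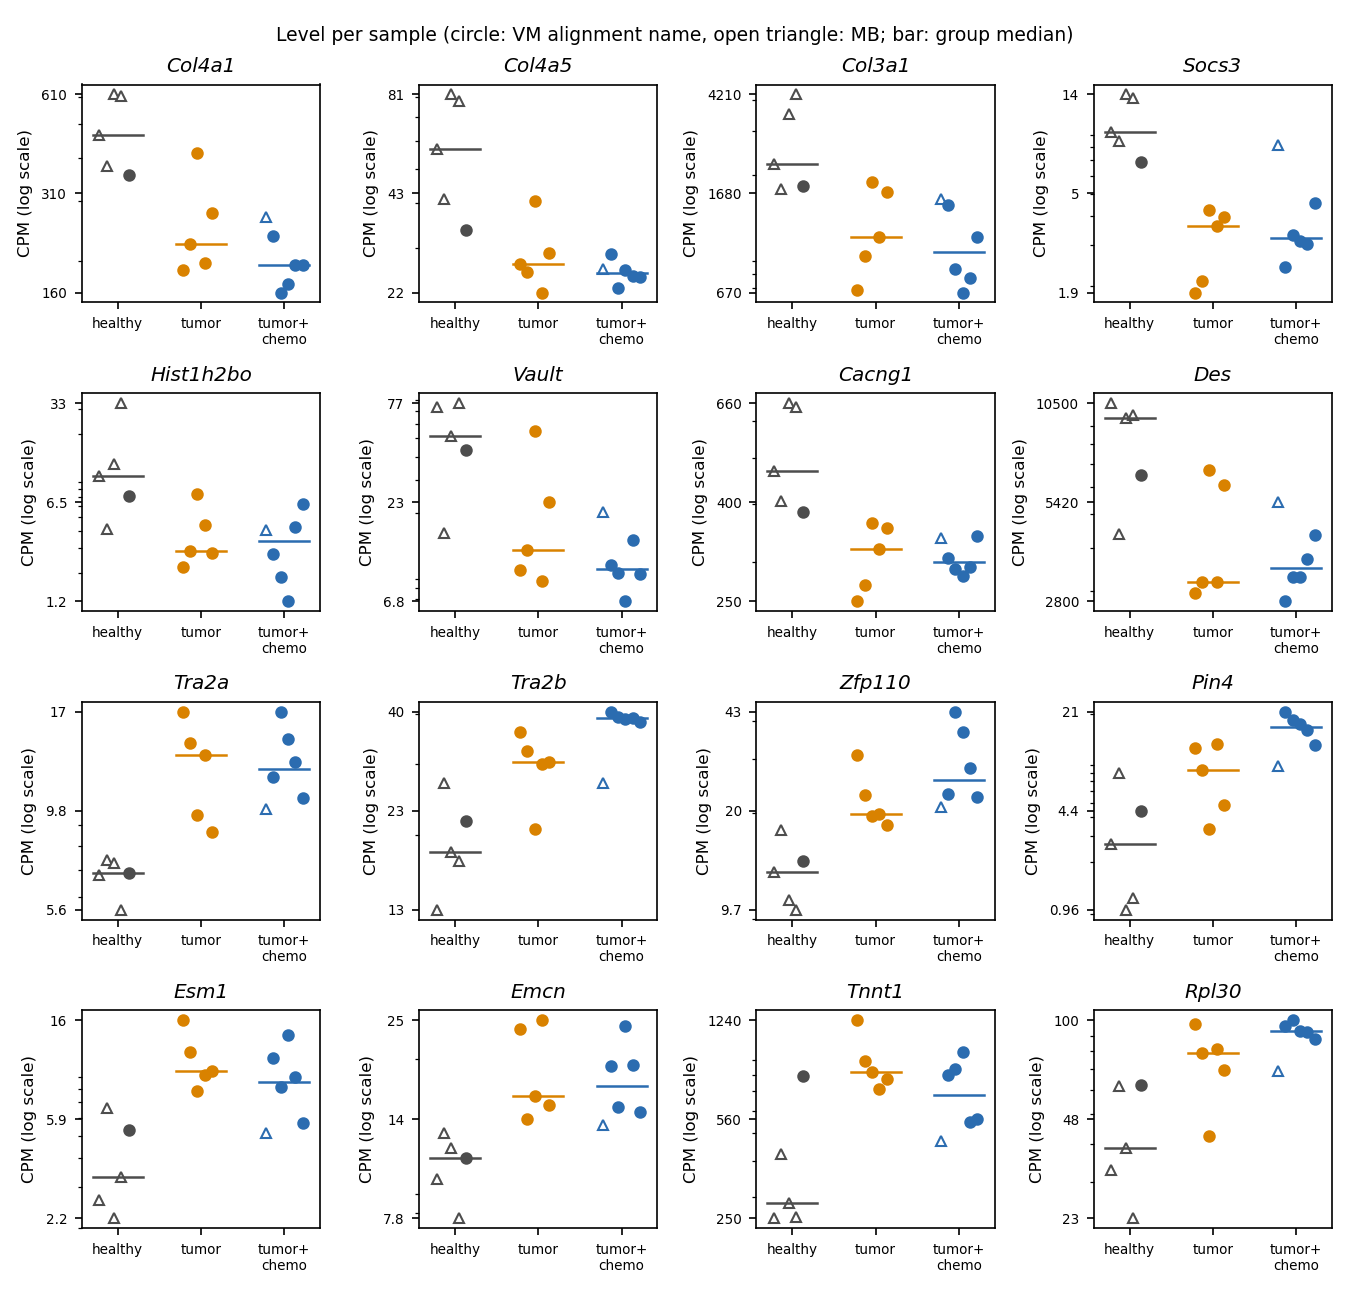
Each panel gives the level of a gene (CPM, log scale) in every sample of the 3 groups, with circles for samples whose alignment name ends in VM, open triangles for MB, and a bar at the group median. For Cacng1, Tra2a, Zfp110 and Emcn all 11 tumor-bearing samples lie on the same side of all 5 healthy ones; in the other panels the groups overlap, most often through tumor sample 8 or chemotherapy sample 11.

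Genes of the fiber surface and contraction machinery fell in part. Of 16 excitation-contraction coupling genes, 3 were called lower and none higher (18.8%), and all 3 were subunits of the voltage-sensing calcium channel. The median of this list was -0.09 and turned to 0.05 with total-count scaling. Cacng1, the gamma subunit, stood at 470, 405, 657, 645 and 383 CPM in healthy samples, at 247, 268, 363, 319 and 354 CPM in tumor samples and from 279 to 341 CPM with chemotherapy (median 299). All 11 tumor-bearing samples lay below all 5 healthy samples. Its log2 fold change came to -0.73 ± 0.14 (SE; edgeR adjusted p = 0.0346) and was nearly the same in the tumor and chemotherapy groups, at -0.72 and -0.74. Without healthy samples 1, 3 and 4 it was -0.35. Cacna1s, the pore and voltage sensor, averaged 2586 ± 634 CPM in healthy samples, 1539 ± 524 in tumor samples and 1367 ± 260 with chemotherapy (SD; -0.83 ± 0.18 SE, and -0.42 without healthy samples 1, 3 and 4). Cacnb1, the beta subunit, named after its values were seen, was at -0.50.

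Des, which encodes desmin, the intermediate filament that ties Z-discs together, stood at 10500, 4390, 9510, 9720 and 6480 CPM in healthy samples and at 2960, 3180, 6710, 3180 and 6080 CPM in tumor samples. It ran from 2800 to 5420 CPM with chemotherapy (median 3500). Healthy samples 2 and 5 lay among the tumor-bearing samples, and tumor samples 8 and 10 and chemotherapy sample 11 reached into the healthy range. On the log2 scale this came to -0.98 ± 0.22 (SE; edgeR adjusted p = 0.0346), and -0.41 without healthy samples 1, 3 and 4. Desmin also counts among the 15 myogenic and satellite cell genes, of which 3 were called lower and none higher (20%; median -0.39, and -0.19 without healthy samples 1, 3 and 4). Megf10, a receptor of satellite cells, the muscle stem cells, stood at 13, 17.6, 15.4, 13.4 and 8.96 CPM in healthy samples and at 7.97, 6.67, 6.84, 6.99 and 8.30 CPM in tumor samples. With chemotherapy it ran from 2.85 to 10.6 CPM (median 5.81). All 5 tumor samples lay below the healthy range, and chemotherapy sample 15 lay above healthy sample 5. Its fold change of -1.03 ± 0.21 (edgeR adjusted p = 0.0346) was -0.96 without healthy samples 1, 3 and 4. Pax7, the transcription factor that marks satellite cells, was at -1.30 on 2.70 CPM, named after its values were seen.

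Slow-fiber genes leaned the other way. Of 11, 2 were called higher and none lower (18.2% against 3.12% of all genes), and 10 had positive fold changes (median 0.45). That median was 0.17 without healthy samples 1, 3 and 4, and -0.19 in the VM samples alone, which hold 1 healthy sample. By group, the median of the list was 0.68 in the tumor group and 0.15 with chemotherapy. Tnnt1, the slow troponin T, stood at 252, 424, 285, 254 and 789 CPM in healthy samples, at 1240, 894, 815, 711 and 772 CPM in tumor samples and from 469 to 962 CPM with chemotherapy (median 678). Healthy sample 5 lay among the tumor-bearing samples and the other 4 healthy samples below all of them. The fold change was 0.97 ± 0.26 (SE; edgeR adjusted p = 0.0405), 0.37 without healthy samples 1, 3 and 4, and 0.04 in the VM samples alone. Myh7, the slow myosin heavy chain itself, was not called, at 0.55 in the tumor group and -0.38 with chemotherapy (pooled 0.08 ± 0.22, adjusted p = 0.82). Myh7b, a related slow-type myosin, named after its values were seen, was called higher at 0.75. Of 12 fast-fiber genes, Myoz1, a Z-disc protein of fast fibers, was called lower at -0.68 and the other 11 were not called.

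**Figure D4:**
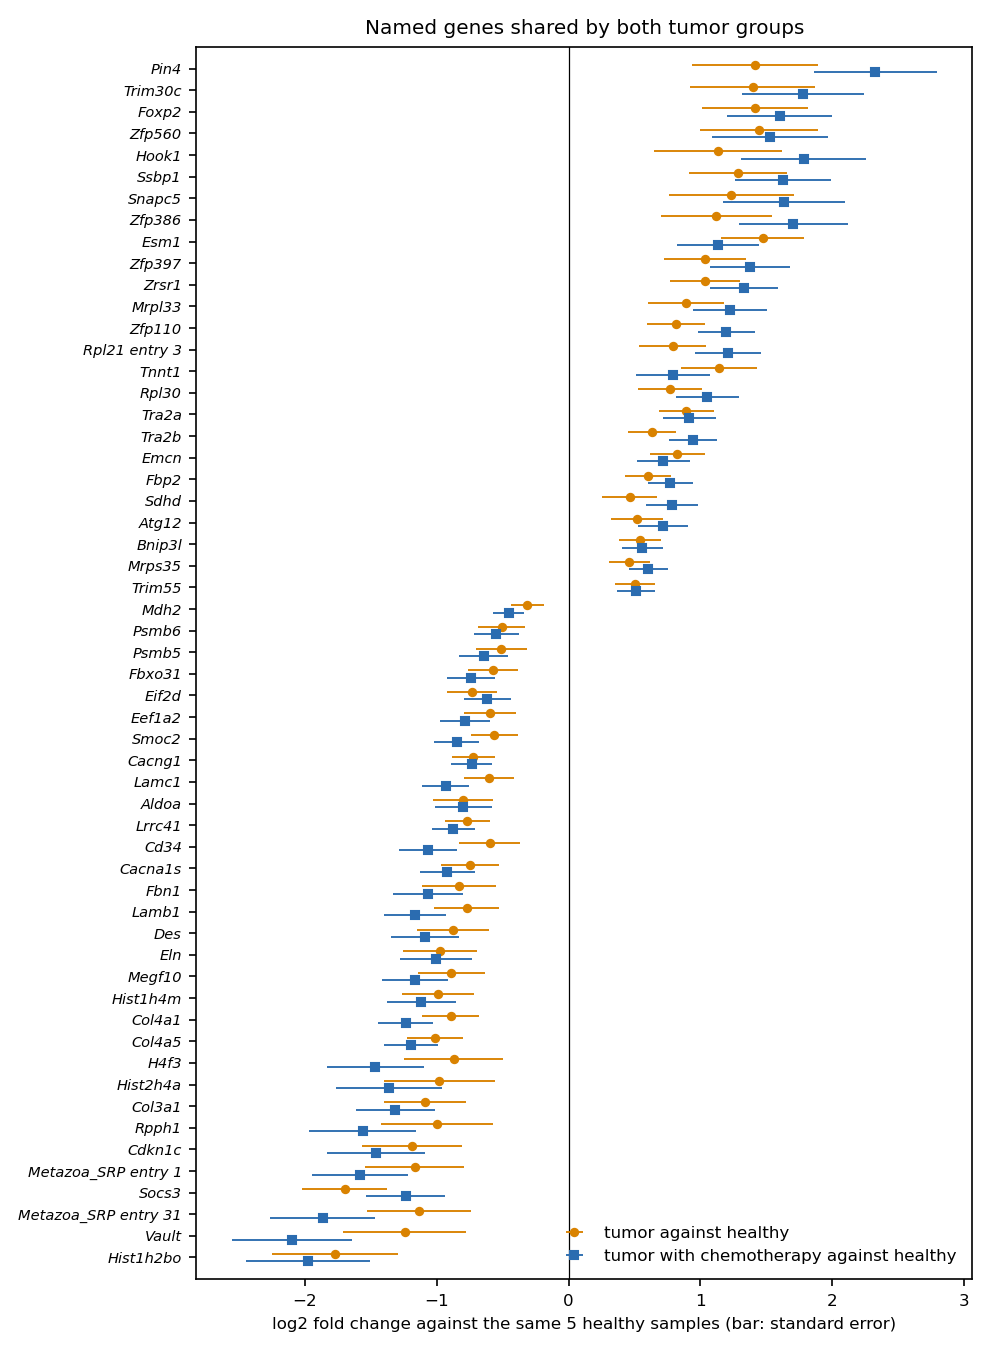
Each row is a named gene shared by both tumor groups, with its log2 fold change against the same 5 healthy samples in the tumor group (orange circles) and with chemotherapy (blue squares), and bars for the standard error. The values of both groups lie on the same side of 0 in every row, from Pin4 at the top, at 1.41 and 2.33, to Hist1h2bo at the bottom, at -1.77 and -1.98.

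In energy metabolism, calls were read against the 3.12% of all genes called higher and 4% called lower. Of 27 genes of glycolysis and glycogen, 1 was called higher and 3 lower (3.7% and 11.1%), with a median of -0.22. Fbp2, the muscle fructose bisphosphatase, which runs against glycolysis, stood at 60.6, 62.3, 47.3, 42.0 and 37.3 CPM in healthy samples and at 77.4, 80.2, 59.1, 89.9 and 70.6 CPM in tumor samples. It ran from 65.1 to 104 CPM with chemotherapy (median 84.3). Only tumor sample 8 lay within the healthy range. The fold change of Fbp2 was 0.69 ± 0.15 (SE; edgeR adjusted p = 0.0346), and 0.69 without healthy samples 1, 3 and 4. Aldoa, the muscle aldolase, fell at -0.80 ± 0.19 from 31270 ± 8880 CPM in healthy to 17970 ± 5460 in tumor and 17990 ± 3430 in chemotherapy samples (SD), and at -0.27 without healthy samples 1, 3 and 4. Of 27 genes of the tricarboxylic acid cycle, 1 was called higher and 2 lower (3.7% and 7.41%). Sdhd, the membrane anchor of succinate dehydrogenase, was at 0.62 ± 0.18, and Mdh2, the mitochondrial malate dehydrogenase, at -0.38 ± 0.10 (edgeR adjusted p = 0.0475 and 0.0419), against 0.28 and -0.24 without healthy samples 1, 3 and 4. Of 24 fatty acid oxidation genes, Acadm and Hadh, dehydrogenases of that pathway, were called higher at 0.84 and 0.47 (8.33%), and of 33 subunits of respiratory complexes II to V, Atp5mc1 was called lower at -0.67 (3.03%). These last 3 were named after their values were seen.

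Splicing regulators had the highest share of higher calls of any list with at least 3 calls. Of 61 serine-arginine-rich, heterogeneous nuclear ribonucleoprotein and RNA-binding motif genes, 14 were called higher and none lower (23% against 3.12%), with a median of 0.38. The median was 0.51 with total-count scaling and 0.16 without healthy samples 1, 3 and 4. Tra2a and Tra2b encode paired activators of exon inclusion. Tra2a stood at 6.80, 7.41, 7.26, 5.60 and 6.88 CPM in healthy samples, at 17, 14.3, 9.50, 13.3 and 8.65 CPM in tumor samples and from 9.87 to 17 CPM with chemotherapy (median 12.3). All 11 tumor-bearing samples lay above all 5 healthy samples. Its fold change of 0.90 ± 0.18 (SE; edgeR adjusted p = 0.0346) was 0.83 without healthy samples 1, 3 and 4. Tra2b stood at 13, 26.9, 18.1, 17.2 and 21.6 CPM in healthy samples, at 36.0, 32.4, 20.7, 30.0 and 30.3 CPM in tumor samples and from 26.9 to 40.5 CPM with chemotherapy (median 39.0). Tumor sample 8 lay below healthy samples 2 and 5, and chemotherapy sample 11, the lowest of its group, was level with healthy sample 2. The fold change of Tra2b was 0.79 ± 0.16 (edgeR adjusted p = 0.0346), and 0.46 without healthy samples 1, 3 and 4. Zrsr1, a relative of the splicing factor that reads the end of introns, was at 1.18 ± 0.24. Of the heterogeneous nuclear ribonucleoproteins, 8 were called higher, from 0.53 (Hnrnpa1) to 1.15 (Hnrnpm), named after their values were seen.

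Zinc finger genes of the Zfp series were called higher in 14 and lower in 4 of 222 members (6.31% and 1.8%; median 0.18). Zfp110 stood at 12.8, 17.6, 10.4, 9.66 and 13.9 CPM in healthy samples, at 30.9, 22.9, 19.5, 19.8 and 18.3 CPM in tumor samples and from 20.9 to 42.8 CPM with chemotherapy (median 25.5). All tumor-bearing samples lay above all healthy ones. The log2 fold change was 1.0 ± 0.20 (SE; edgeR adjusted p = 0.0346), and 0.70 without healthy samples 1, 3 and 4. Zfp397 was at 1.21 ± 0.28, Zfp560 at 1.49 ± 0.40 and Zfp386 at 1.41 ± 0.38.

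The highest shared genes with at least 5 CPM were expressed at low levels. Pin4, a prolyl isomerase of the parvulin family, stood at 2.64, 7.96, 0.956, 1.15 and 4.42 CPM in healthy samples, at 11.7, 8.39, 3.32, 12.5 and 4.84 CPM in tumor samples and from 8.94 to 20.6 CPM with chemotherapy (median 16.3). Every chemotherapy sample exceeded every healthy one, while tumor samples 8 and 10 lay within the healthy range. Its log2 fold change came to 1.87 ± 0.43 (SE; edgeR adjusted p = 0.0346), and 0.89 without healthy samples 1, 3 and 4. The rest of the 8 highest were Trim30c at 1.59, the transcription factor Foxp2 at 1.51, Zfp560, the microtubule linker Hook1 at 1.46, the mitochondrial single-strand DNA-binding protein Ssbp1 at 1.46, Snapc5 at 1.44 and Zfp386. Snapc5 is a subunit of the complex that starts transcription of small nuclear RNA genes. Without healthy samples 1, 3 and 4 these values ran from 0.48 (Hook1) to 0.99 (Foxp2).

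The list with the largest share of lower calls was the histones. Of 23 histone genes tested, 13 were called lower and 1 higher (56.5% and 4.35%), and the median was -1.11. It was -0.99 with total-count scaling, and -0.09 without healthy samples 1, 3 and 4, with 13 of 25 members then tested negative. Most of the members called lower are replication-dependent genes, whose messages end in a stem-loop in place of a poly(A) tail and are made in dividing cells. Hist1h2bo, an H2B gene, stood at 10.0, 4.12, 12.1, 33.3 and 7.12 CPM in healthy samples, at 2.21, 2.86, 7.41, 4.45 and 2.77 CPM in tumor samples and from 1.25 to 6.27 CPM with chemotherapy (median 3.39). Healthy samples 2 and 5 lay among the tumor-bearing samples, and healthy sample 4 was the highest. On the log2 scale this came to -1.88 ± 0.39 (SE; edgeR adjusted p = 0.0346), and -0.63 without healthy samples 1, 3 and 4. Hist1h4m, H4f3 and Hist2h4a, which carry H4 in their names, were at -1.05 ± 0.23, -1.17 ± 0.31 and -1.17 ± 0.34. Without healthy samples 1, 3 and 4 they were at -0.49, -0.16 and -0.09. H3f3a, which encodes the replacement histone H3.3 and, as background, has a polyadenylated message, was the member called higher, at 0.36 ± 0.10. Its 11 tumor-bearing samples, at 77.8 to 103 CPM, lay above the healthy ones at 61.4 to 77.4, and it was named after its values were seen.

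The promoter windows found for Hist1h2bo and H4f3 are shown because both genes fell and histone promoters are known for their CCAAT boxes. These boxes are in capitals here on either strand (CCAAT or ATTGG). In the H4f3 window, the codons from the last ATG read as the start of an H1 protein and not of H4. Which histone gene that window belongs to is therefore uncertain. The windows run from 250 bases before to 50 after the RefSeq start in GRCr8, at chr17:47413740-47414039 for Hist1h2bo and chr17:41980292-41980591 for H4f3, both on the minus strand and written 5′ to 3′.
Hist1h2bo: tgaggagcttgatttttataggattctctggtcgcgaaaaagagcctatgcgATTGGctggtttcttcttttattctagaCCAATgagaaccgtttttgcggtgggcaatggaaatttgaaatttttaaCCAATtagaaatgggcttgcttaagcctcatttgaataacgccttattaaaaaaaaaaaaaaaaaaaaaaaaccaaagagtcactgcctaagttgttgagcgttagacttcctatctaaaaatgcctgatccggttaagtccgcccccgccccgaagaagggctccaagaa
H4f3: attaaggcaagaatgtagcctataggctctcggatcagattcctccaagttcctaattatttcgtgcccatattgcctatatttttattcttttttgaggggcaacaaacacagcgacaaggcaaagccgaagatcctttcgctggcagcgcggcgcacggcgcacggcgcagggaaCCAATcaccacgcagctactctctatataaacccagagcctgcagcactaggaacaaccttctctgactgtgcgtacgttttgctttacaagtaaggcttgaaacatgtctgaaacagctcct

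CCAAT on either strand was found in 19 of the 20 tested histone genes with a window (95.0%), in 37.8% of the windows of 9242 tested genes and in 37.7% of all 27457 windows. GGGCGG on either strand was found in 40.0% of the histone windows and in 63.1% of those of tested genes. Histone genes lie in clusters and resemble each other, so these windows are not independent, and a match is a description of letters only.

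Small noncoding RNA genes that were called were all lower. Of 50 tested, 18 were called lower and none higher (36%; median -0.91), and without healthy samples 1, 3 and 4 the median was -0.09 with no call. Vault, an RNA of a large ribonucleoprotein particle, stood at 73.3, 15.7, 51.3, 77.1 and 43.6 CPM in healthy samples, at 10.0, 12.8, 55.1, 8.73 and 23.0 CPM in tumor samples and from 6.85 to 20.3 CPM with chemotherapy (median 10.1). Healthy samples 2, 3 and 5 lay within the tumor-bearing range, and tumor samples 8 and 10 and chemotherapy sample 11 within the healthy one. The fold change was -1.67 ± 0.38 (SE; edgeR adjusted p = 0.0346), and -0.88 without healthy samples 1, 3 and 4. Rpph1, the RNA of ribonuclease P, was at -1.28 ± 0.35, and -0.16 without them. Metazoa_SRP entries, which code for the RNA that guides secreted proteins to the membrane, had the smallest p among the rest, but they repeat a name and cannot be told apart by it. Small noncoding RNA genes took 2.22% ± 1.07 of all counts in healthy samples and 1.13% ± 0.453 in tumor-bearing ones (SD; exact permutation p = 0.00984, two-sided). This was taken over all entries of these RNA types, not only the 50 tested. Rpph1 and a 7SK entry, at medians of 13500 and 7650 CPM in healthy samples, were far more abundant than the other called members. The share can therefore largely follow these 2 genes. That share was 0.805% in healthy sample 2, 1.57% in healthy sample 5 and 2.50% to 3.59% in healthy samples 1, 3 and 4. Without healthy samples 1, 3 and 4 the difference in the share was -0.0617 percentage points (exact permutation p = 0.885). With only healthy samples 2 and 5 left, that test could hardly detect a difference. The part of this share in the lower levels of histone and small noncoding RNA genes was not tested.

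**Figure D5:**
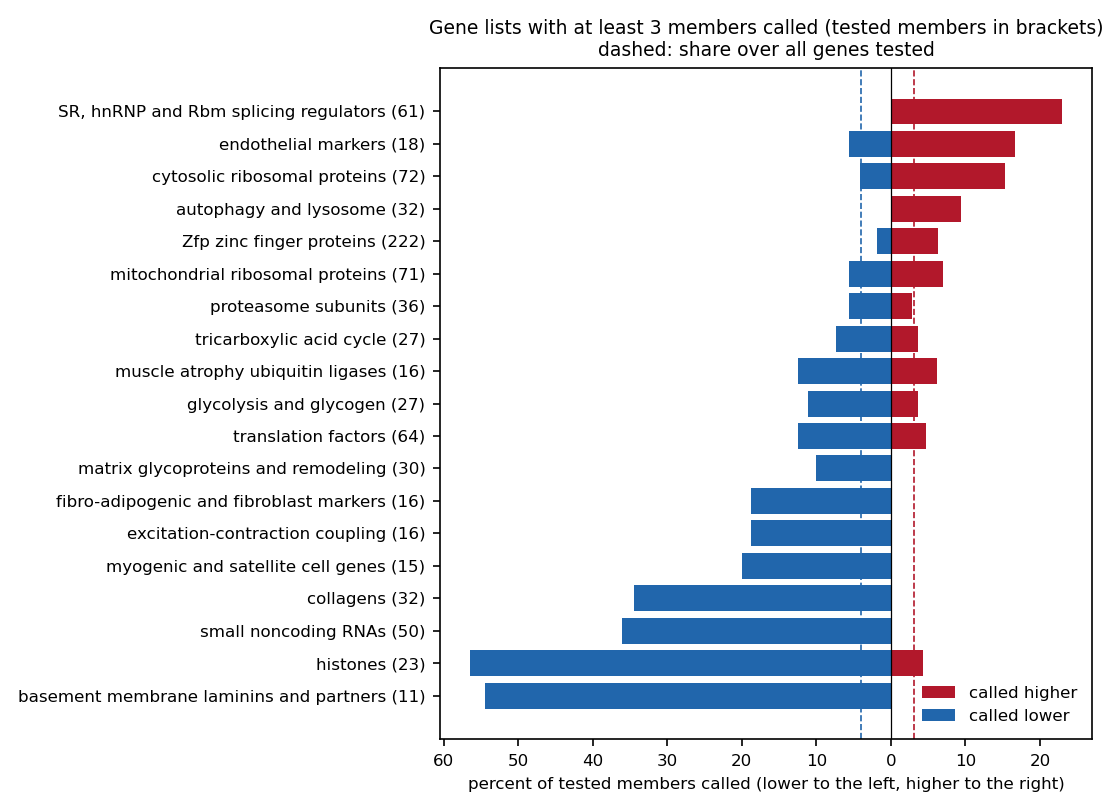
Bars give the percent of tested members called higher (red, to the right) and lower (blue, to the left) for each list with at least 3 members called, with the number tested in brackets. Dashed lines mark 3.12% and 4%, the shares over all genes; histones (56.5%) and basement membrane genes (54.5%) have the longest bars to the left and splicing regulators (23%) the longest to the right.

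Genes of the translation machinery moved in both directions. Of 72 cytosolic ribosomal protein entries, 11 were called higher and 3 lower (15.3% and 4.17%), with a median of 0.04. Rpl30 stood at 32.9, 61.5, 38.8, 22.8 and 62.1 CPM in healthy samples, at 98.4, 78.8, 42.2, 81.5 and 69.5 CPM in tumor samples and from 68.9 to 101 CPM with chemotherapy (median 92.9). All chemotherapy samples lay above the healthy range and tumor sample 8 within it. Its log2 fold change came to 0.91 ± 0.22 (SE; edgeR adjusted p = 0.0346), and 0.40 without healthy samples 1, 3 and 4. An entry of Rpl21 was at 1.0 ± 0.23, but that name stands on several entries, and ribosomal proteins have many near-identical copies in the genome between which reads can be split. Rpl27, Rpl15 and Rps15, named after their values were seen, were called lower, from -0.53 to -0.60. Of 64 translation initiation and elongation factor genes, 3 were called higher and 8 lower (4.69% and 12.5%; median -0.03, 0.10 with total-count scaling). Eef1a2, the elongation factor 1 alpha of muscle and nerve, averaged 1974 ± 524 CPM in healthy samples, 1309 ± 343 in tumor samples and 1146 ± 170 with chemotherapy (SD; -0.69 ± 0.16 SE, and -0.25 without healthy samples 1, 3 and 4). Eif2d, which brings transfer RNA to the ribosome, was at -0.68 ± 0.16 (-0.35 without healthy samples 1, 3 and 4). Of 71 mitochondrial ribosomal proteins, 5 were called higher and 4 lower (7.04% and 5.63%, against 3.12% and 4% of all genes). Their median was 0.04. Mrpl33 at 1.06 ± 0.26 and Mrps35 at 0.53 ± 0.14 were among those called higher. Those called lower ran from -0.43 (Mrpl20) to -0.60 (Mrps34), named after their values were seen. The 5 healthy samples of Mrps35, at 11.1 to 16.5 CPM, all lay below the 11 tumor-bearing ones, at 16.7 to 24.9.

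Protein breakdown is the process most often measured in cachexia. Of 16 muscle atrophy ubiquitin ligases, 1 was called higher and 2 lower (6.25% and 12.5%, against 3.12% and 4% of all genes). Trim63 and Fbxo32, which encode the muscle ligases MuRF1 and atrogin-1, were not called. Trim63 stood at 201, 237, 218, 184 and 226 CPM in healthy samples, at 237, 217, 191, 245 and 212 CPM in tumor samples and from 199 to 251 CPM with chemotherapy (median 220). The groups overlapped almost entirely (0.06 ± 0.10 SE, adjusted p = 0.725). Fbxo32 stood at 290, 262, 209, 72.1 and 283 CPM in healthy samples, at 252, 340, 170, 166 and 157 CPM in tumor samples and from 209 to 454 CPM with chemotherapy (median 249). Healthy sample 4 was far below all others, and the value of 0.14 ± 0.27 (adjusted p = 0.738) turned to -0.09 without it. Trim55, which encodes MuRF2, a relative of MuRF1, rose at 0.51 ± 0.13, and Fbxo31, a cell cycle ligase, fell at -0.66 ± 0.16 (edgeR adjusted p = 0.0372 and 0.0346), against 0.28 and -0.29 without healthy samples 1, 3 and 4. Trim54, which encodes MuRF3, was called lower at -0.47, named after its values were seen. Lrrc41, a substrate adaptor of ubiquitin ligases that stands on none of the lists, had the third smallest p of all shared lower genes. It stood at 58.4, 51.1, 68.1, 61.2 and 38.9 CPM in healthy samples, at 24.9, 30.7, 44.3, 27.2 and 35.8 CPM in tumor samples and from 26.1 to 35.1 CPM with chemotherapy (median 29.4). Only tumor sample 8 lay within the healthy range, and the fold change was -0.82 ± 0.14 (SE; edgeR adjusted p = 0.0346), or -0.51 without healthy samples 1, 3 and 4.

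Of 36 proteasome subunits, 1 was called higher and 2 lower (2.78% and 5.56%, near the 3.12% and 4% of all genes). Psmb5 and Psmb6, catalytic subunits, were at -0.58 ± 0.16 and -0.53 ± 0.15, and without healthy samples 1, 3 and 4 at -0.14 and 0.02. Of 32 autophagy and lysosome genes, 3 were called higher and none lower (9.38%; median -0.01), while at an unadjusted p below 0.05 there were 5 higher and 11 lower. Bnip3l, a receptor for the removal of mitochondria, stood at 20.6, 37.1, 29.1, 21.7 and 25.2 CPM in healthy samples, at 43.4, 42.7, 35.2, 33.3 and 38.7 CPM in tumor samples and from 33.6 to 47.0 CPM with chemotherapy (median 37.4). Healthy sample 2 lay within the tumor-bearing range and the other 4 below it. On the log2 scale this came to 0.55 ± 0.14 (SE; edgeR adjusted p = 0.0365), and 0.34 without healthy samples 1, 3 and 4. Atg12, a ubiquitin-like protein of autophagosome formation, was at 0.62 ± 0.17, and at 0.28 without healthy samples 1, 3 and 4.

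Among signaling genes, Socs3 had the smallest p of the cytokine list. It encodes an inhibitor of the signal from interleukin-6 type receptors and is itself switched on by that signal. Socs3 stood at 9.26, 8.51, 13.5, 13 and 6.88 CPM in healthy samples, at 1.87, 2.10, 4.27, 3.65 and 3.98 CPM in tumor samples and from 2.42 to 8.16 CPM with chemotherapy (median 3.21). All tumor samples lay below the healthy range, and of the chemotherapy samples only sample 11 lay within it. The fold change was -1.47 ± 0.26 (SE; edgeR adjusted p = 0.0346), and -1.03 without healthy samples 1, 3 and 4. None of the other 22 genes of that list was called, and Il6st, the shared receptor chain, was at 0.00 ± 0.10 (adjusted p = 0.993). Cdkn1c, an inhibitor of cell cycle kinases, was among the 8 lowest shared genes of at least 5 CPM with an unrepeated symbol, at -1.33 ± 0.31 (-0.61 without healthy samples 1, 3 and 4), while Cdkn1a, a target of p53, was at 0.33 ± 0.34 (adjusted p = 0.506). None of 34 myostatin, activin and TGF-beta genes was called (edgeR; 5 higher and 4 lower at an unadjusted p below 0.05). Mstn, which encodes myostatin, was at 0.49 ± 0.21 (adjusted p = 0.116) and Foxo1, a transcription factor of atrophy, at -0.40 ± 0.18 (adjusted p = 0.122). Pdk4 and Ppargc1a, regulators of fuel use and of mitochondria, were at 0.17 ± 0.39 and 0.29 ± 0.18 (adjusted p = 0.788 and 0.258). Gdf15 had 24 counts over all samples and was not tested.

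Of 18 endothelial markers, 3 were called higher and 1 lower (16.7% and 5.56%; median -0.06, 0.08 with total-count scaling). Fold changes were positive for 7 of them and negative for 11. Tie1, named after its values were seen, was the marker called lower, at -0.44 ± 0.12 (SE), and was not a shared gene. The summed level of the markers ran from 865 to 1040 CPM in healthy samples, 829 to 1050 in tumor samples and 749 to 1050 with chemotherapy. Esm1, a proteoglycan secreted by vessel cells, stood at 2.64, 6.59, 2.20, 3.31 and 5.28 CPM in healthy samples, at 15.8, 11.5, 7.79, 9.21 and 9.51 CPM in tumor samples and from 5.13 to 13.7 CPM with chemotherapy (median 8.56). All tumor samples lay above the healthy range, and chemotherapy samples 11 and 17 lay within it. Its log2 fold change came to 1.30 ± 0.28 (SE; edgeR adjusted p = 0.0346), and 0.70 without healthy samples 1, 3 and 4. Emcn, a surface sialomucin of capillaries and veins, stood at 9.82, 12.9, 11.8, 7.77 and 11.1 CPM in healthy samples, at 23.8, 14, 16, 25.1 and 15.2 CPM in tumor samples and from 13.5 to 24.3 CPM with chemotherapy (median 17). All 11 tumor-bearing samples lay above all 5 healthy ones, at a fold change of 0.77 ± 0.18 (edgeR adjusted p = 0.0346), and 0.60 without healthy samples 1, 3 and 4.

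All 11 tumor-bearing samples lay on the same side of all 5 healthy ones for 28 genes (0.236% of those tested), 11 above (0.0928%) and 17 below (0.143%), and 23 of them were called. The further genes described here were chosen after their values were seen. Among the genes above, Lyar, a nucleolar protein, ran from 2.10 to 5.22 CPM in healthy samples and from 5.51 to 13.9 in tumor-bearing ones, at 1.09 ± 0.24 (SE). Cxadr, a cell adhesion protein and virus receptor, was at 1.17 ± 0.27 and Scamp1, a protein of membrane traffic, at 0.53 ± 0.14. Among the genes below, Rras, a small GTPase, was at -0.72 ± 0.15 and G6pc3, a glucose phosphatase, at -0.60 ± 0.14. Slc2a4, which encodes the insulin-responsive glucose transporter GLUT4, ran from 468 to 577 CPM in healthy samples and from 399 to 461 in tumor-bearing ones, but its change of -0.28 ± 0.09 was not called (edgeR adjusted p = 0.0588).

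The tumor groups were also tested against each other, since pooling them could hide an opposite change. No gene was called between chemotherapy and tumor alone (edgeR, smallest adjusted p = 0.172), where 233 genes were higher and 452 lower at an unadjusted p below 0.05 (1.97% and 3.81%). The DESeq2 Wald test called 9 genes and limma-voom none. The smallest p belonged to Fras1, a matrix protein of epithelial basement membranes, at 64.8, 42.0, 43.0, 68.9 and 46.7 CPM in healthy samples, 55.8, 75.2, 63.8, 37.2 and 54.1 CPM in tumor samples and 23.8 to 30.6 CPM with chemotherapy (median 30.1). All chemotherapy samples lay below all others, at -0.99 ± 0.17 against the tumor group. Nr1d1, a repressor of the circadian clock, was at -0.96 ± 0.19 in the same test. The third smallest p belonged to a gene with a placeholder name, AABR07015055.1, at -2.02 ± 0.41.

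Of the 56 named genes shared by both tumor groups, 9 kept a fold change within 1.5 times of its value when healthy samples 1, 3 and 4 were left out. They were Fbp2, Megf10, Tra2a, Zfp397, Emcn, Mrps35, Smoc2, Socs3 and Zfp110. For 28 of the 56 the value fell below 0.5 of that with all samples. Only healthy samples 2 and 5 remained in that fit, and smaller values were likely in advance from the choice of samples. These counts therefore do not sort the genes into firm and weak ones.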

How the data were processed

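The deposited table holds read counts per gene for 17 libraries, as whole numbers that the authors made from stranded total RNA. Among the tools in the submitters' processing notes are TopHat2 2.0.10, Bowtie2, FastQC 0.11.4, Trim Galore 0.4.1 and CASAVA 1.9. For the counting tool and the genome build, the sources used here give no name. Of 32883 entries, 388 without a name (0.102% to 0.373% of counts) were left out, and 192 names stand on more than 1 entry. Libraries 11 and 12 were the closest pair, at a chi-square per degree of freedom of 2.04, which is above sampling noise, against 5.47 for the next pair. They were counted as 1 sample.

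Counts were normalized by TMM and fitted in edgeR 4.0.16 (R 4.3.3) with robust quasi-likelihood F tests over 3 group means, with 13 residual degrees of freedom and a minimum count of 10 in filterByExpr. Each tumor group had equal weight, and p-values were adjusted by Benjamini-Hochberg over 11856 genes. Alternatives used DESeq2 1.42.0, limma 3.58.1 and sva 3.50.0, and the fit was also run on simulated counts with known changes. Those counts held no differences common to some of the samples, such as those of healthy samples 1, 3 and 4. That run therefore cannot give the error rate of the calls made here. CPM values are TMM-scaled. Among shared genes of at least 5 CPM with an unrepeated symbol, the 8 highest, the 8 lowest and the 4 with the smallest p in each direction were named. Without those limits, the 2 genes with the smallest p of each list with at least 3 calls were added. The 3 with the smallest p between the tumor groups and 14 chosen by name were added in the same way. The members, lists and names were chosen with earlier results of these data known.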

Additional observations from a re-analysis of the deposited data

Results flagged for a closer look

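In 5 of 216 combinations of a group with a gene or a measure of the counts, the highest or lowest sample stood apart. The groups held 5 or 6 samples. Chance gives about 1 in 20, so these are fewer than chance gives. In the chemotherapy group, sample 11 was the lowest for Zfp386, at 8.5 CPM against 18.3 for the next. The same sample was the lowest for Tra2b, at 26.9 CPM with the next at 38.2. For Rpl30 it was at 68.9 CPM and the next at 87.8. Sample 17 was the lowest of the group for Fras1, at 23.8 CPM, with 28.6 for the next. Healthy sample 4 was the lowest of its group for Fbxo32, at 72.1 CPM against 209 for the next. Sample 11, summed from libraries 11 and 12, is the only chemotherapy sample with the suffix MB. The part of the suffix in these values was not tested.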

How the results depend on the processing

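No paired analysis was possible because the groups share no replicate numbers. All 844 called genes kept their direction with the suffix as a term, and 823 did in the VM samples alone, where 161 had an unadjusted p below 0.05 and 21 turned; no gene was called in either or without healthy samples 1, 3 and 4. Higher and lower calls numbered 1005 and 226 with total-count scaling, 165 and 218 without the filter, 1055 and 930 by the DESeq2 Wald test, 1211 and 773 by limma-voom, 230 and 339 with 17 libraries, and 1227 and 921 with 1 surrogate variable. Shared calls were 952 and 200, 165 and 210, 795 and 717, 1059 and 650, 228 and 319, and 1111 and 741 in the same order. With 1 sample left out, higher calls ran from 0 to 1874 and lower ones from 0 to 1661, shared ones from 0 to 1638 and from 0 to 1290, and those between the tumor groups from 0 to 3 (9 with DESeq2). The small noncoding RNA share differed by -0.0617 points without healthy samples 1, 3 and 4. Signs turned for Psmb6 (0.018 without healthy samples 1, 3 and 4). With the suffix as a term, in VM samples alone and without healthy samples 1, 3 and 4, Fbxo32 was at -0.18, -0.17 and -0.15, Trim63 at -0.033, -0.017 and -0.064, Myh7 at -0.17, -0.49 and -0.11, and Col1a1 at 0.86, 0.65 and 0.46. Pdk4 was at -0.28 and -0.17 in the last 2 and -0.013 with limma-voom, and Ppargc1a at -0.066 and -0.10 in the first 2. Il6st, at -0.005 with limma-voom, -0.004 with 1 group and -0.003 without the 20 most abundant genes, ran from -0.057 to 0.018 where 1 sample was left out. Over the same fits Fbxo32 ran from -0.092 (without healthy sample 4) to 0.246, Trim63 from 0 to 0.088 and Myh7 from -0.084 to 0.26. The cause was not tested. The 1-group fit gives no shared count.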

Other observations

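Adipocyte markers had a median log2 fold change of 0.61 over 13 tested, and 0.70 without healthy samples 1, 3 and 4. Of the 13, 9 had positive and 4 negative fold changes, with 4 higher and 1 lower at an unadjusted p below 0.05 (edgeR). Fabp4, a fatty acid binding protein that endothelial cells also express, was the only member called, at 0.79. Plin1, which coats fat droplets, was at 2.05 ± 0.73 and Adipoq, which encodes adiponectin, at 2.02 ± 0.74, and neither was called. The summed level of the list ran from 422 to 599 CPM in healthy, 388 to 980 in tumor and 407 to 1220 in chemotherapy samples, with Pnpla2 at 0. Red blood cell genes had a median of -1.03 over 5 tested, and -0.47 without healthy samples 1, 3 and 4, and Hbb-bs, a beta globin, was called lower at -0.93. Their sum ran from 441 to 1380 CPM in healthy, 227 to 589 in tumor and 124 to 922 in chemotherapy samples, with Hba-a3 at 0. None of 17 macrophage markers was called (edgeR; 1 higher and 4 lower at an unadjusted p below 0.05), and their median of -0.34 was 0.02 without healthy samples 1, 3 and 4. None of 18 circadian clock genes was called (edgeR; 2 higher and 2 lower at an unadjusted p below 0.05), with a median of 0.32 in the tumor group and -0.04 with chemotherapy. Genes named here were chosen after their values were seen.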
